A study of Mus musculus with 3 samples.

Results

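The genes described here are 46 members of the machinery that copies and divides a cell's chromosomes, taken by symbol from the 55536 genes of the GENCODE M21 mouse annotation. They fall into 20 genes of DNA replication, 13 genes of mitosis and 13 genes of cycle control, that is cyclins, cyclin-dependent kinases, kinase inhibitors, pocket proteins and E2F factors. The rule names them by symbol and uses no measured value, but the members were chosen with earlier results of these data known. All 46 were found in every table. Polyadenylated RNA came from effector memory CD4-positive T cells with an alpha-beta receptor, collected from 1 male C57BL/6J mouse aged 7 months, with no treatment, transgene or induced allele named in the labels. The 3 libraries are technical replicates 1, 2 and 3 of 1 biological replicate and form 1 group, so every SD given here (n = 3 libraries) is technical spread within 1 mouse and says nothing of variation between mice. How the cells were sorted is not given in the sources used here.

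A cell that is going to divide first loads the MCM helicase onto its replication origins, a step called licensing, and then copies its DNA with polymerases, a sliding clamp and a supply of deoxynucleotides. Later, mitotic kinases, B-type cyclins and the spindle apparatus separate the copies. Entry is controlled by D-type cyclins with Cdk4 or Cdk6, which phosphorylate the pocket proteins that hold back E2F factors, and by the Cdkn1 and Cdkn2 inhibitors. Resting memory T cells are known to stay outside the cycle until antigen or cytokine recalls them.

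Gene totals were 16251564, 14878641 and 14152590 estimated counts in libraries 1, 2 and 3. All 7 markers of CD4 alpha-beta T cells were above 100 TPM (a level corrected for transcript length and scaled to a fixed total in each library), with Cd4 at 479.3, 470.3 and 477.39 TPM and the receptor gene Trac at 3136, 3659 and 3017 TPM. The 6 B cell and germinal centre markers summed to 1.13 to 1.68 TPM, the 5 myeloid markers to 1.05 to 2.31 TPM, and the 2 NK markers to 0 to 0.16 TPM, with Klra8 and the gamma-delta gene Trdc listed at 0 in every library. Of the 4 early thymocyte markers, Rag1, Rag2 and Dntt were each below 0.5 TPM in every library, while Cd1d1 stood at 46.7 to 53.1 TPM. Of the other lists, 1 of 4 erythroid markers (Hbb-bs, 1.46 to 6.59 TPM) and 2 of 4 stromal and epithelial markers (Pecam1, 59 to 60.2 TPM, and Epcam, 4.4 to 6.16 TPM) reached 1 TPM in the mean. The 2 plasma cell markers summed to 0.76 to 1.99 TPM and the 2 CD8 markers to 3.34 to 5.14 TPM. Library 2 stood apart, since the chi-square averaged over genes was 18.5 against library 1 and 19.97 against library 3 but 6.08 between libraries 1 and 3. In bulk RNA, few cells with much of a transcript and many cells with little of it cannot be told apart.

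The replication genes were abundant and the mitotic genes were scarce. The median replication gene stood at 14.1, 19.2 and 19.5 TPM in libraries 1, 2 and 3, and the median mitotic gene at 1.03, 1.41 and 1.31 TPM, so that the medians differed 13.7-fold, 13.6-fold and 14.9-fold (14.1 ± 0.715, SD). On the scale of mean log2(TPM + 0.1) the replication genes were higher by 3.41, 3.51 and 3.35 (3.42 ± 0.08). The cycle control genes were the most abundant of the 3 groups, with medians of 57.4, 58 and 56.2 TPM. The same medians over all 22028 protein-coding genes were 0.7, 0.6 and 0.86 TPM, so the mitotic genes lay close to the typical protein-coding gene and the other groups far above it.

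At a mean of 1 TPM or more stood 18 of 20 replication genes, 7 of 13 mitotic genes and 13 of 13 control genes, beside 47.7% of all protein-coding genes. At 10 TPM or more the numbers were 14, 0 and 10, beside 34.2% of all protein-coding genes. These numbers take all transcripts of a gene, and some replication genes passed only so. In protein-coding transcripts Tk1 had 6.69 TPM and Pola1 9.55 TPM, and Tyms had 13.1% of its level in them. Only Pcna among the replication genes reached 100 TPM, as did 5 control genes and 7.82% of all protein-coding genes. In libraries 1, 2 and 3, 15, 14 and 14 of the 20 replication genes stood above the highest mitotic gene, which was Cdk1 in library 1 and Top2a in libraries 2 and 3. The summed level was 629 ± 26.2 TPM for replication, 23.6 ± 0.731 TPM for mitosis and 1331 ± 32.7 TPM for control. The 3 sums were apart by many times their spread between libraries, although 5 or 6 replication genes in each library did not exceed the highest mitotic gene.

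**Figure D1:**
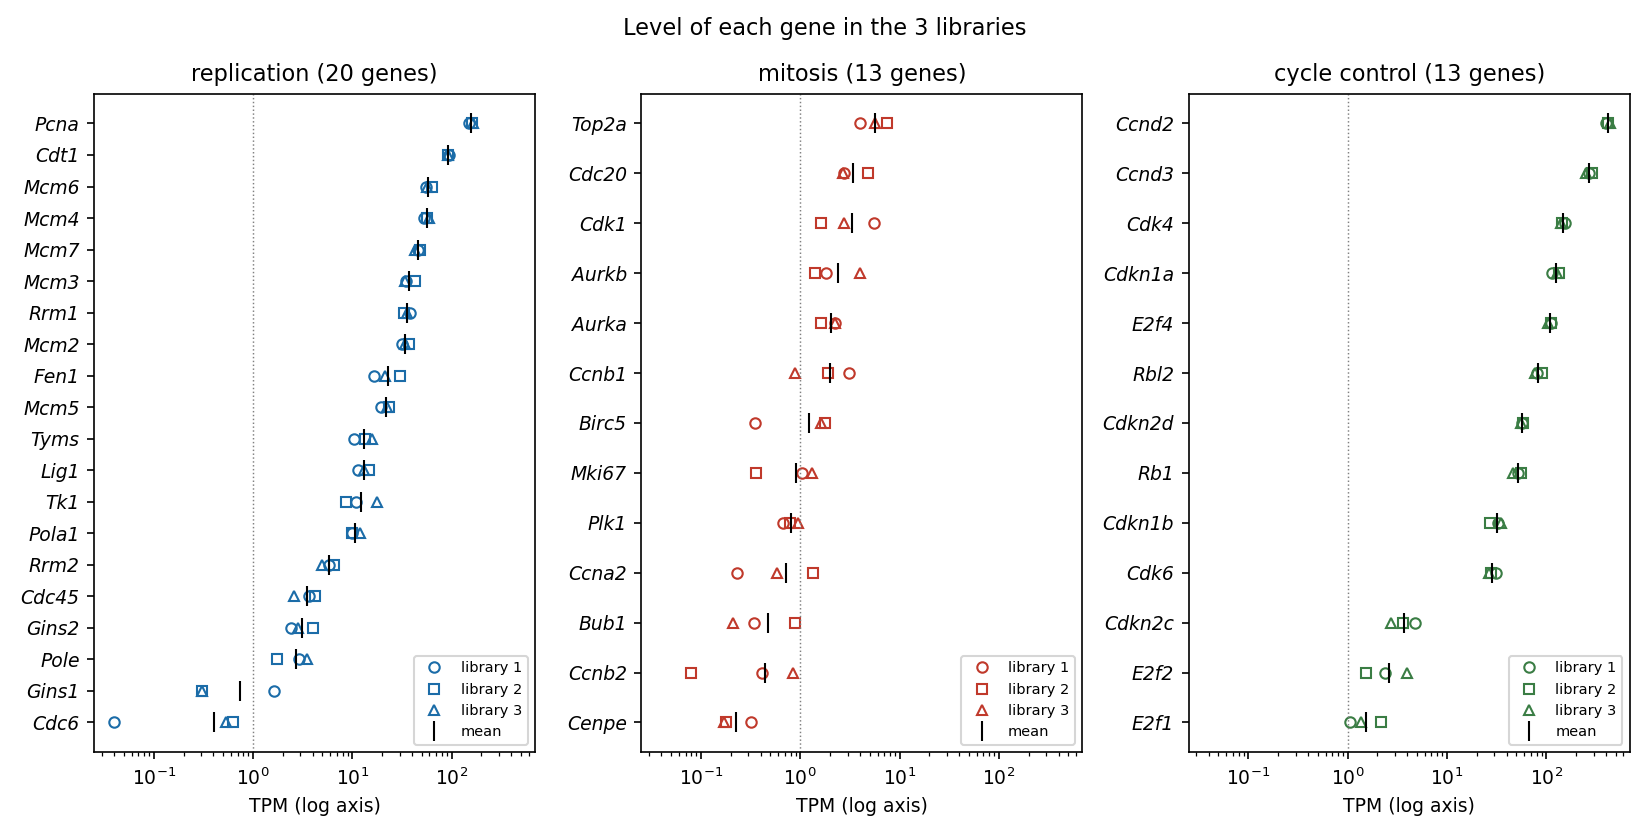
TPM of each of the 46 genes in libraries 1, 2 and 3 (open circles, squares and triangles) with the mean of the 3 (bar), in 3 panels with a shared log axis; the dotted line marks 1 TPM. Replication genes run from Pcna at 158 TPM down to Cdc6 at 0.403 TPM, all mitotic genes lie below 10 TPM, and the symbols spread widely for genes near or below 1 TPM.

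Of the 8 licensing factors among the members, Cdt1 and the MCM subunits were abundant and Cdc6 was scarce. Cdt1, which brings the helicase to the origin, was measured at 94.6, 91.3 and 91.5 TPM, the narrowest range of the replication genes relative to the level. Its loading partner Cdc6, the ATPase that works with Cdt1, had 0.04, 0.63 and 0.54 TPM from 1, 14 and 12 estimated counts. Cdc6 had the lowest mean of the 20 replication genes, although Gins1 was lower in libraries 2 and 3, and the 1 count in library 1 is under the 3 counts that a count of 0 allows.

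The 6 subunits of the MCM helicase were all present at 20 TPM or more in the mean and within 3-fold of one another. Mcm6 stood at 55, 63.8 and 57 TPM and Mcm4 at 52.3, 57 and 60 TPM, and these ranges overlapped. Mcm7 followed with 46.2, 48 and 43.2 TPM and Mcm3 with 35, 43.2 and 34.2 TPM. Mcm2 had 31.9, 37 and 34 TPM. Mcm5 was the lowest subunit at 19.6, 23.7 and 22.2 TPM. The highest of the 6 exceeded the lowest 2.81-fold, 2.69-fold and 2.71-fold in the 3 libraries (2.74 ± 0.065), and the lowest value of any subunit in any library, 19.6 TPM, was above the highest mitotic value, 7.4 TPM.

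Cdc45 and the GINS complex, which turn the loaded MCM ring into an active helicase, were uneven. Outside the 46 genes, and named after their values were seen, the GINS subunit Gins4 had 31.1, 29.5 and 26.3 TPM, above Mcm5, and Gins3 had 3.89 ± 0.933 TPM. Cdc45 was measured at 3.65, 4.24 and 2.57 TPM, and the GINS subunit Gins2 at 2.39, 4.04 and 2.85 TPM. Gins1, another GINS subunit, had 1.62, 0.31 and 0.31 TPM from 10, 2 and 1.96 estimated counts. Cdc45, Gins2 and Gins1 lay within the mitotic range in every library, and the ranges of Cdc45 and Gins2 overlapped each other. Of Gins2, 29.96% of the level was assigned to protein-coding transcripts.

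Pcna, the sliding clamp that tethers polymerases to DNA, was the most abundant replication gene at 151, 159 and 163 TPM (158 ± 6.11), higher than 95.3% of protein-coding genes. It lies at chr2:132249162-132253314 on the minus strand of mm10. The other fork genes were lower: Pola1, the catalytic subunit of the priming polymerase alpha, had 10.1, 9.86 and 11.9 TPM. Pole, the catalytic subunit of polymerase epsilon on the leading strand, had 2.94, 1.75 and 3.49 TPM, and its range did not overlap that of Pola1. Fen1, the flap nuclease that trims Okazaki fragments, stood at 16.7, 30.3 and 21.5 TPM, with library 2 the highest. Lig1, which seals the trimmed fragments, had 11.5, 14.8 and 13.2 TPM. Pola1 and Lig1 overlapped in range, and Pcna was above the other 19 replication members in TPM in each library. In the second deposited gene table, described below, Pcna had fewer counts than Mcm6 in each library, so its lead depends on the table.

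The nucleotide supply was uneven. Rrm1, the large subunit of ribonucleotide reductase, stood at 38.5, 33.5 and 35.4 TPM, and Rrm2, the small subunit, known to be made mainly in S phase, at 5.81, 6.56 and 4.98 TPM. Rrm1 exceeded Rrm2 by 6.63-fold, 5.1-fold and 7.1-fold (6.28 ± 1.04), and the 2 ranges were apart. Tyms, thymidylate synthase, had 10.4, 13.5 and 15.7 TPM. Tk1, the cytosolic thymidine kinase, had 10.8, 8.68 and 17.6 TPM and with a 2.03-fold gap between highest and lowest library varied most among the 14 replication genes at 10 TPM or more.

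Promoter windows from RefSeq (GRCm38.p6, 250 bases before to 50 after a transcription start) were at hand for 37 of the 46 genes, and 3 short motifs were searched on both strands. The E2F motif was searched only as TTTGGCGC or TTTCGCGC, so sites with other letters were not counted. It was present in 7 of 16 replication genes with a window (43.8%), in 1 of 11 mitotic genes (Cdk1), in 1 of 10 control genes (E2f2) and in 1.22% of 16522 protein-coding genes. The 7 replication genes were Cdt1, Mcm3, Mcm5, Mcm6, Mcm7, Pola1 and Lig1, of which the first 5 act in licensing. The 250 bases before the start of Mcm6 (chr1:128359706-128359955, minus strand) are printed because Mcm6 is the most abundant replication gene with an E2F match before its start. Capitals mark matches to the E2F motif, at positions -106, -102 and -43 from the start, and to CCAAT, the box of the factor NF-Y, at -55 and -12, where it reads as ATTGG on the printed strand. A position is that of the middle of the match, and the matches at -106 and -102 overlap on opposite strands.
Mcm6: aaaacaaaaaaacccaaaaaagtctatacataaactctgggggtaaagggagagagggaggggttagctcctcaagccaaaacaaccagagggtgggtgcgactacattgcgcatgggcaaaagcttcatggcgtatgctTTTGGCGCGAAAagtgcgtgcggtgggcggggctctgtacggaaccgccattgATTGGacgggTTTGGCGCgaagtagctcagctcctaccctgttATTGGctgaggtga
The stretches around the match in the other 6 genes are shown for comparison, with the E2F letters in capitals, read on the strand that holds them; the matches of Cdt1, Mcm3, Mcm7 and Lig1 lie after the start.
Cdt1 (chr8:122568036-122568064, plus strand): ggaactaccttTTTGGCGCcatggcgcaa
Mcm3 (chr1:20820263-20820285, minus strand): acttgggaagtTTTGGCGCcaag
Mcm5 (chr8:75109345-75109374, plus strand): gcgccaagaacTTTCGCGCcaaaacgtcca
Mcm7 (chr5:138171849-138171878, minus strand): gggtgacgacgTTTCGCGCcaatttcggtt
Pola1 (chrX:93632275-93632304, plus strand): gcgggagtgcaTTTGGCGCcctgtgatgac
Lig1 (chr7:13278841-13278870, minus strand): cgccacacagaTTTCGCGCgcactttggcg
A match is a run of letters and was not tested for binding.

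The mitotic genes were low and poorly resolved from one another. Top2a, the topoisomerase that untangles sister chromatids, had the highest mean, from 4.01, 7.4 and 5.66 TPM, and was below Cdk1 in library 1. Mki67, the coat protein of mitotic chromosomes used as a proliferation marker, had 1.03, 0.36 and 1.31 TPM from 53, 32.1 and 80.3 estimated counts. Pcna exceeded Mki67 by 147-fold, 442-fold and 124-fold in the 3 libraries. In the order of mean level all 12 pairs of neighbours among the 13 mitotic genes overlapped in range, against 10 of 19 pairs among the replication genes and 3 of 12 among the control genes.

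Among the kinases and cyclins that drive mitosis, Cdk1, the catalytic partner of the B-type cyclins, had 5.54, 1.61 and 2.76 TPM from 38, 16 and 25 counts. Ccnb1 had 3.13, 1.91 and 0.88 TPM and Ccnb2 0.41, 0.08 and 0.84 TPM. Ccna2, the A-type cyclin of S phase and early mitosis, had 0.23, 1.33 and 0.58 TPM. The libraries ranked differently for these 4 genes, with library 1 highest for Cdk1 and Ccnb1, library 3 for Ccnb2 and library 2 for Ccna2. The spindle and entry kinases Aurka, Aurkb and Plk1 had means of 2.03 ± 0.359, 2.40 ± 1.38 and 0.800 ± 0.135 TPM.

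The remaining mitotic genes act at kinetochores and in the checkpoint. Cdc20, the activator of the anaphase-promoting complex, had 2.73, 4.86 and 2.7 TPM. Birc5, survivin of the chromosomal passenger complex, had 0.35, 1.76 and 1.6 TPM. Bub1, a checkpoint kinase, had 0.34, 0.88 and 0.21 TPM. Cenpe, a kinetochore motor, had the lowest mean of the 46 genes, from 0.32, 0.18 and 0.17 TPM and 15, 8 and 12 counts, and was higher than 38.5% of protein-coding genes. No mitotic gene reached 10 TPM in any library.

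The cell cycle homology element, CHR, was searched as TTTGAA or TTCGAA and was present in 8 of 11 mitotic genes with a window (72.7%), in 4 of 16 replication genes, in 2 of 10 control genes and in 19.4% of all protein-coding genes. The CCAAT box was present in 10 of 11 mitotic, 10 of 16 replication and 5 of 10 control genes, and in 42.1% of all protein-coding genes. The 250 bases before the start of Top2a (chr11:99024190-99024439, minus strand) are printed because Top2a is the most abundant mitotic gene with a CHR match before its start. Capitals mark CHR matches at -176, -137, -117 and -20 and CCAAT matches, on either strand, at -225, -187, -147, -96, -76 and -56.
Top2a: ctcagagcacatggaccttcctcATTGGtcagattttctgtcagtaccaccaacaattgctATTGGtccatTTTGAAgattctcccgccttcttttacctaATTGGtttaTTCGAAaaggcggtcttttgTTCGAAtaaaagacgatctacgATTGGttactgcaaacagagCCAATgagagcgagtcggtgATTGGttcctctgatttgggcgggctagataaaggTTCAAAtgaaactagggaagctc
The stretches around a CHR match in the other 7 mitotic genes, with its letters in capitals, let the neighbouring bases be compared. The matches shown for Ccnb2, Aurka, Plk1 and Bub1 lie after the start. Mki67, Cdk1 and Ccnb2 hold 2 CHR matches each, and not all are shown. The match of Ccnb2 that is not shown lies before the start, at -164.
Mki67 (chr7:135716479-135716506, minus strand): tagcgccagaaTTTGAAccgccgttttg
Cdk1 (chr10:69352967-69352994, minus strand): tgattggctccTTTGAAcgtctacgtgc
Ccnb2 (chr9:70421534-70421561, minus strand): gcggcgcggtaTTTGAAtcgcggaccgg
Aurka (chr2:172370522-172370549, minus strand): aaaggagaaccTTTGAAttgtaacggct
Plk1 (chr7:122159454-122159481, plus strand): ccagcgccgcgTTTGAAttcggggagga
Bub1 (chr2:127831829-127831856, minus strand): tgcgcggggaaTTCGAAtcgccggcggc
Cdc20 (chr4:118437345-118437372, minus strand): gacagttgggtTTTGAAggagccaatga
All 7 stretches carry the letters TTTGAA apart from that of Bub1, which carries TTCGAA. Windows of Ccna2 and Aurkb were not analysed here.

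**Figure D2:**
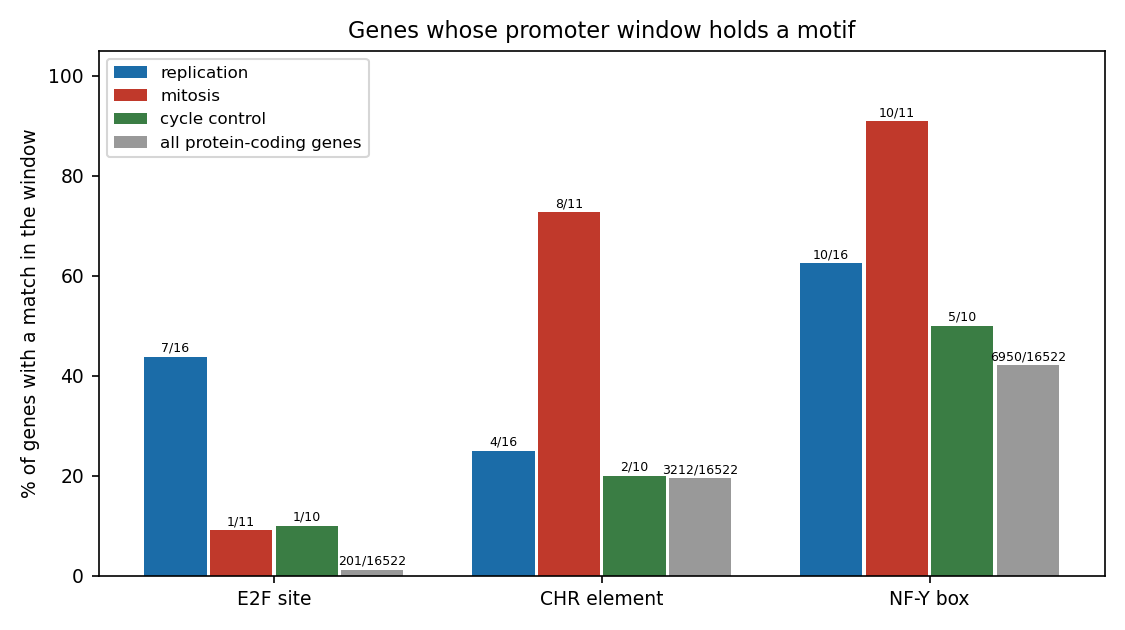
Share of genes (%) whose promoter window holds an E2F, CHR or NF-Y motif on either strand, for replication, mitotic and cycle control genes and for all 16522 protein-coding genes with a window; the fraction above each bar gives genes with a match over genes with a window. E2F letters were in 7 of 16 replication genes against 1.22% of all genes, and CHR letters in 8 of 11 mitotic genes against 19.4% of all.

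The D-type cyclins were the most abundant of the 46 genes. Ccnd2 stood at 403, 422 and 437 TPM (421 ± 16.7), higher than 98.5% of protein-coding genes, and Ccnd3 at 268, 287 and 249.9 TPM. Ccnd2 exceeded Ccnd3 1.51-fold, 1.47-fold and 1.75-fold in the 3 libraries, over all transcripts of each gene. This order depends on the measure. Protein-coding transcripts took 63.7% of the level of Ccnd2 and 92.8% of that of Ccnd3. Estimated counts, without length correction, ran the other way, at 4416, 3974 and 3880 for Ccnd2 and 5037, 4677 and 4155 for Ccnd3. Their kinase Cdk4 had 154, 146 and 140.4 TPM, while Cdk6, which binds the same cyclins, had 31.5, 28.1 and 26.5 TPM. The ratio of Cdk4 to Cdk6 was 5.12 ± 0.216 over all transcripts. Protein-coding transcripts took 49.7% of the level of Cdk4 and 99.7% of that of Cdk6, so the ratio depends on the transcripts counted. Cdk4 exceeded the mitotic kinase Cdk1 by 27.8-fold, 90.4-fold and 50.9-fold. Ccnd1, the D-type cyclin not among the 46, was at 0.410 ± 0.0954 TPM.

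Inhibitors of both families were present. Cdkn1a, the p21 inhibitor known as a p53 target, had 115, 133 and 128 TPM, and Cdkn1b, the p27 inhibitor of quiescent lymphocytes, had 32.4, 27.5 and 35.5 TPM. Cdkn1a exceeded Cdkn1b by 3.998 ± 0.743-fold and the ranges did not overlap. Of the INK4 inhibitors, which bind Cdk4 and Cdk6, Cdkn2d (p19) had 57.4, 58 and 56.2 TPM and Cdkn2c (p18) 4.8, 3.61 and 2.77 TPM. Cdkn2d was the least variable of the 46 genes between libraries, with an SD of 1.6% of its mean.

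The pocket proteins Rbl2 (p130), typical of resting cells, and Rb1 had 80.9, 90.9 and 77.5 TPM and 52.7, 55.9 and 46.1 TPM. Rbl2 exceeded Rb1 1.61 ± 0.0733-fold with separate ranges, over all transcripts of each gene. Protein-coding transcripts took 94.1% of the level of Rbl2 and 47.5% of that of Rb1, so the size of the ratio depends on the transcripts counted. E2f4, the repressive factor that partners p130, had 113, 113 and 104 TPM. The activating factors were scarce: E2f1 had 1.05, 2.19 and 1.36 TPM and E2f2 had 2.36, 1.52 and 3.96 TPM, with overlapping ranges. E2f4 exceeded E2f1 by 108-fold, 51.6-fold and 76.6-fold, so the direction held in each library while the size depended on the few counts of E2f1, 28, 52 and 32.

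In wider lists of genes of the same pathways, replication also stood above mitosis. These lists were chosen by role but with earlier results of these data known, so they are a description and not independent support. The median of 44 other replication genes was 22.4 ± 2.12 TPM, with 40 at 1 TPM or more and 33 at 10 TPM or more. The highest were Rpa2 (227 ± 21.2 TPM), a subunit of the single-strand binding protein RPA, Pole4 (216 ± 27.7 TPM), an accessory subunit of polymerase epsilon, and Slbp (182 ± 12.4 TPM), which binds histone messages. Among the lowest was Clspn, a checkpoint adaptor, at 0.737 ± 0.345 TPM. The wider list thus also held genes below 1 TPM, 4 of 44.

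The median of 34 other mitotic genes was 1.69 ± 0.551 TPM, with 22 at 1 TPM or more and 8 at 10 TPM or more. Those at the top were far above the 13 members: the securin Pttg1 had 190.3 ± 9.96 TPM, the centromeric histone Cenpa 125 ± 5.43 TPM and the condensin subunit Smc4 98.1 ± 4.32 TPM. The spindle checkpoint kinase Ttk was listed at 0, 0.58 and 0.66 TPM and Cenpf at 0.277 ± 0.271 TPM. The 8 genes above 10 TPM thus stood above each of the 13 mitotic members.

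The median of 33 other control genes was 18.3 ± 1.87 TPM, with 30 at 1 TPM or more and 21 at 10 TPM or more. This median was below that of the other replication genes (22.4 ± 2.12 TPM) in each library. The members' order of control above replication thus did not hold in the wider lists. The antiproliferative genes Btg1 and Btg2 had 2069 ± 237 and 1298 ± 135 TPM, and Rbbp4, a chromatin protein that binds Rb, 215 ± 9.89 TPM. The atypical factor E2f8 was lowest at 0.107 ± 0.11 TPM. All 25 DNA repair genes were at 1 TPM or more and 17 at 10 TPM or more, and their median was 19.2 ± 2.15 TPM. Ercc1 (56 ± 3.28 TPM) and Xrcc1 (39.6 ± 3.48 TPM), of excision repair, led, while Chek1 and Brca1 were lowest at 1.30 ± 0.746 and 1.15 ± 0.667 TPM. All 11 genes of the p53 list were at 1 TPM or more and 9 at 10 TPM or more, led by Gadd45b (619 ± 17.4 TPM), Bax (207 ± 23.2 TPM) and Trp53 itself (164 ± 3.78 TPM), with Zmat3 and Phlda3 lowest at 1.72 ± 0.451 and 1.5 ± 0.831 TPM.

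**Figure D3:**
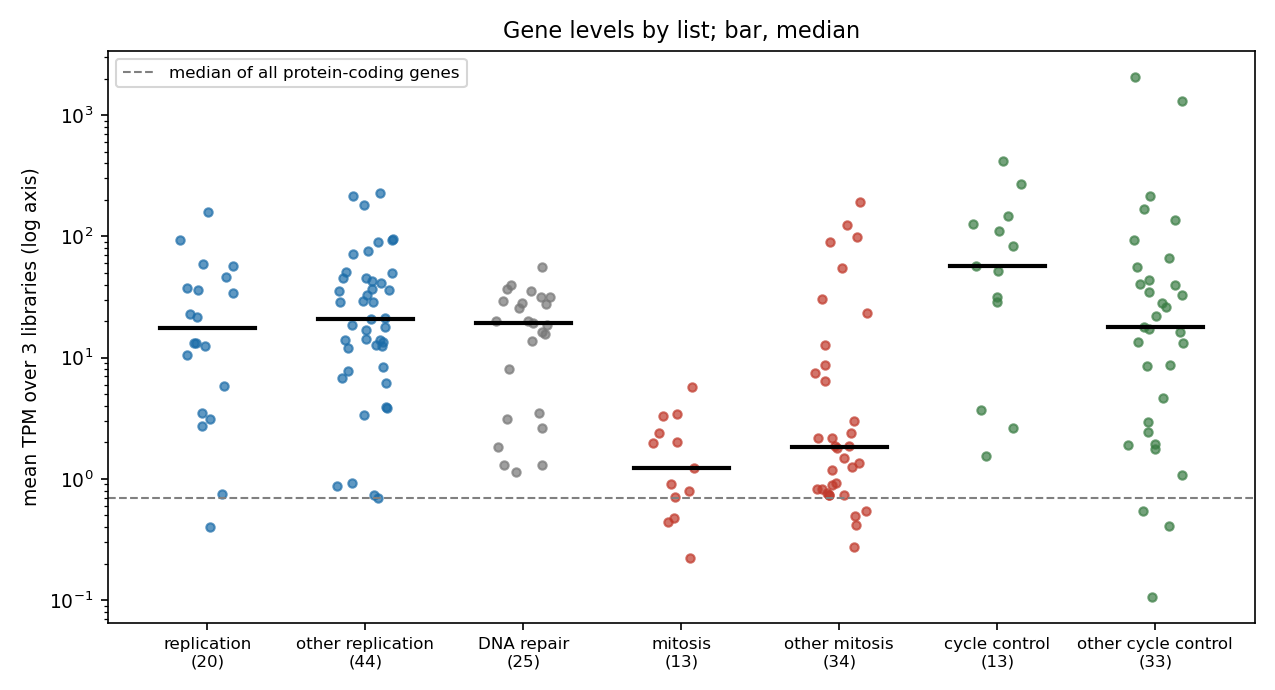
Mean TPM over 3 libraries (log axis) of every gene in the 3 member groups and in 4 wider lists; each point is a gene, the bar is the list's median, the number of genes is in brackets and the dashed line is the median of all protein-coding genes. The replication, DNA repair and control lists have medians from 17.5 to 57.2 TPM, and the mitotic lists 1.24 and 1.82 TPM.

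Whether the libraries differed beyond counting noise was asked for each gene with a chi-square test of homogeneity, run over all 13949 genes with at least 30 counts. At an adjusted p of 0.05 it called 25 of the 43 members tested, beside 57.2% of all genes tested: 13 of 18 replication, 5 of 12 mitotic and 7 of 13 control genes. Cdc6, Gins1 and Ccnb2 had fewer than 30 counts and were not tested. The members' share was thus near the background. Divided by the median inflation of 6.45 over all genes, the test called 1 of 43 members, beside 4.45% of all genes.

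The 1 gene called was Fen1, with 349, 560.3 and 396.5 estimated counts and a 1.8-fold ratio between the highest and lowest library after scaling (adjusted p = 1.53e-16 by the chi-square test and 0.0489 after the correction). Without the correction the next smallest adjusted p-values were those of Cdkn1a (2.90e-12), Rbl2 (2.12e-11) and Cdkn1b (2.17e-10), whose ratios were 1.29, 1.19 and 1.39. Pcna, Cdt1, Cdkn2d and Ccnd2 were not called, with ratios of 1.05, 1.04, 1.03 and 1.02. Leaving out 1 library left 16 of 40, 14 of 38 and 16 of 37 members called without library 1, 2 and 3, beside 43.6%, 27.5% and 42.3% of all genes tested. Library 2 held the highest Fen1 value, and it is also the library that stood apart over all genes. Between libraries 1 and 3 alone Fen1 was still called by the uncorrected test (adjusted p = 0.00716), and over its alternatives the adjusted p ran from 1.02e-16 to 0.0489.

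**Figure D4:**
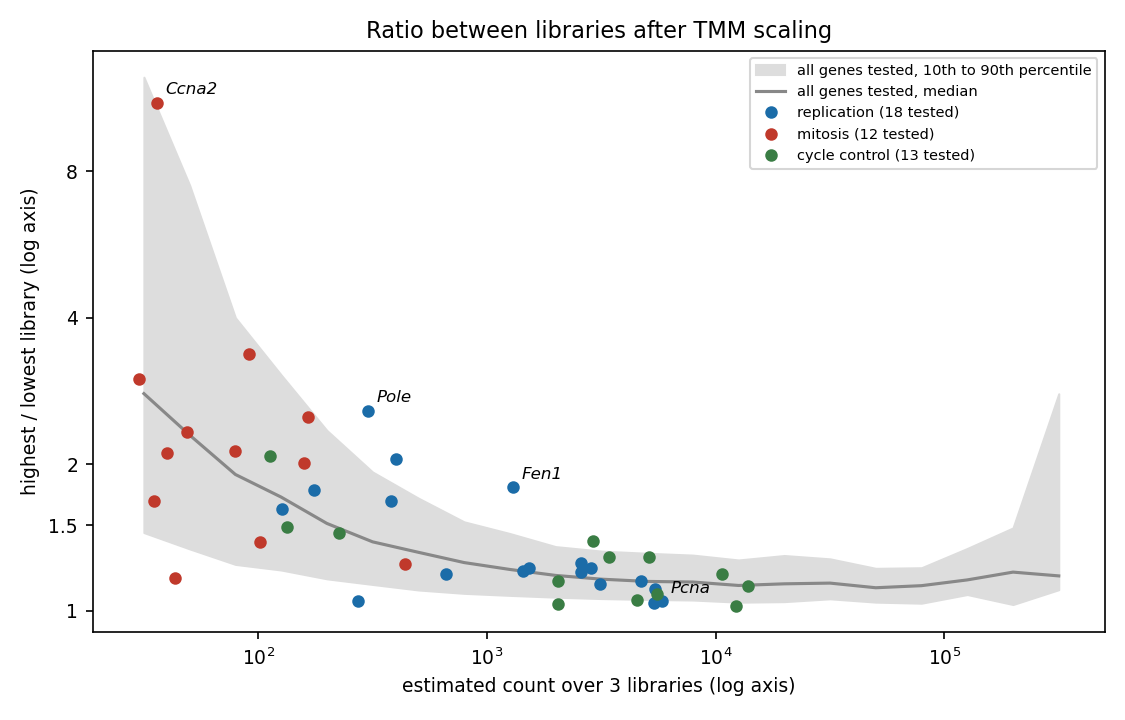
Ratio of the highest to the lowest library after scaling (log axis) against the estimated count over 3 libraries (log axis) for the 43 genes tested, over the median and the 10th to 90th percentile of all genes tested. Ratios shrink as counts grow; Fen1 (1.80-fold) and Pole (2.58-fold) are among the genes above the band at their counts, and Pcna lies near a ratio of 1.

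The annotated class of transcripts differed between the groups. Protein-coding transcripts took 85.7% ± 1.05 of the summed TPM of the replication genes, 77.9% ± 1.04 of that of the control genes and 64.1% ± 3.98 of that of the mitotic genes, and retained-intron transcripts took 9.13% ± 0.448, 9.01% ± 0.0587 and 18.1% ± 9.36. The mitotic share of retained introns was 22.8%, 7.37% and 24.3% in libraries 1, 2 and 3, so library 2 was far below the others. The leading transcript was protein-coding in 17 of 20 replication, 12 of 13 control and 11 of 13 mitotic genes. Abundant genes weigh most in the summed TPM. By gene, the median protein-coding share was 94.1% for control, 86.4% for replication and 68.7% for mitotic genes, so control stood above replication. Under 80% were 4 of 13 control, 8 of 20 replication and 7 of 13 mitotic genes. The same shares over all genes were not taken.

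Of the genes at 10 TPM or more, 8 had under 80% of their level in protein-coding transcripts. Tyms was the most extreme: 48.6% ± 11 of its level was assigned to Tyms-205 and 24.5% ± 5.09 to Tyms-207, both annotated as targets of nonsense-mediated decay, and 13.1% to protein-coding transcripts. Rrm1 had 65.3% ± 2.25 in the protein-coding Rrm1-201 and 20.6% ± 4.92 in Rrm1-202, a decay target. Tk1 had 54.7% ± 7.7 in the protein-coding Tk1-201 and 22.5% ± 5.28 in Tk1-204, which retains an intron. Mcm3 and Lig1 had 79.6% and 70.3% in protein-coding transcripts.

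Among the control genes Cdk4 had 38.5% ± 2.92 in Cdk4-209, which retains an intron, and 29.8% ± 3.87 in the protein-coding Cdk4-201. Rb1 was split between the protein-coding Rb1-201 at 47.4% ± 1.79 and the processed transcript Rb1-206 at 39.98% ± 1.83. Ccnd2 had 45.0% ± 2.58 in the protein-coding Ccnd2-206 and 30.7% ± 1.5 in the processed transcript Ccnd2-207. These splits were assigned from short fragments of 100 to 300 bases and varied little between libraries for Cdk4, Rb1 and Ccnd2.

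**Figure D5:**
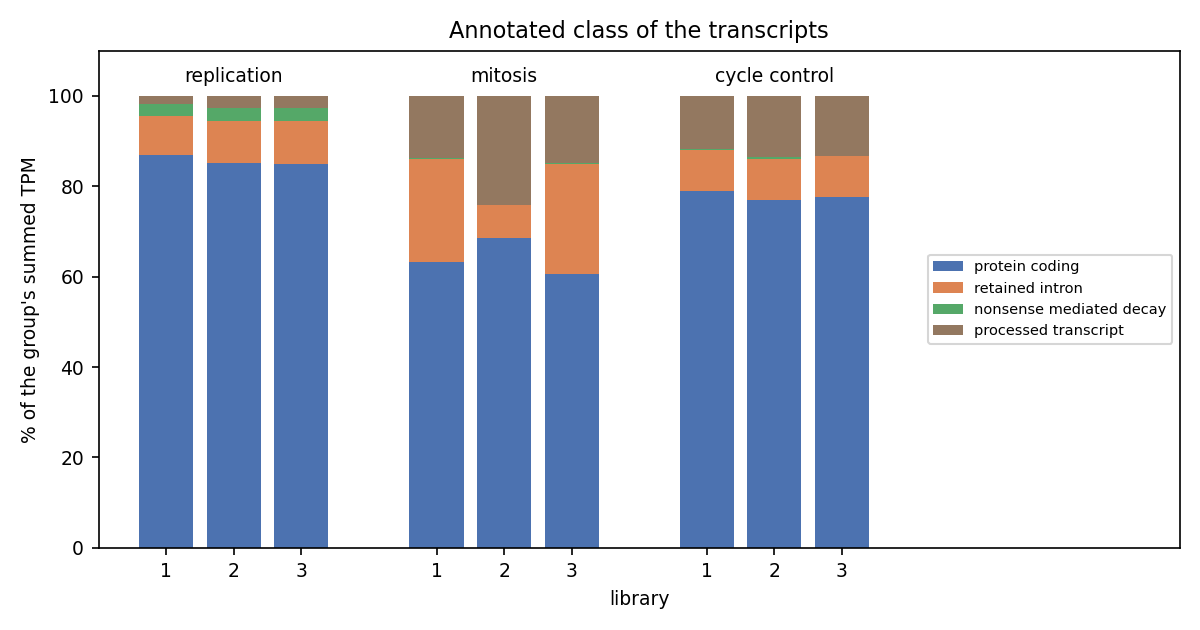
Share (%) of each group's summed TPM by annotated transcript class, for libraries 1, 2 and 3. Protein-coding transcripts took 85.0% to 86.9% for replication, 60.7% to 68.5% for mitosis and 77.0% to 79.1% for cycle control.

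Overlapping annotation limits some single genes. The strand setting of the counting is not given in the sources used here, and 22 of the 46 genes overlap another gene; for 15 of them a gene on the opposite strand had 30 or more counts. Several scarce members lie beside a gene with more counts. Gins2 (127 counts over the 3 libraries) shares 10672 bases with Gm20388 (623 counts) and 2758 bases with Gse1 (1089 counts). Cdc45 (176 counts) shares 209 bases with Ufd1 (3410 counts), Ccna2 (36.2 counts) shares 863 bases with Exosc9 (1155 counts), and Cdc20 (159 counts) shares 53 bases with Elovl1 (1920 counts). Abundant members overlap others too: Cdk4 shares 641 bases with Tspan31 at 106 TPM and Fen1 (1305 counts) shares 3253 bases with the antisense gene Gm10143 (126 counts) and 156 bases with Tmem258 (1957 counts). The overlaps are between whole gene spans, introns included, so shared bases need not be shared transcript. Without the strand setting, reads from the shared bases cannot be placed with either gene of a pair here. Reads from outside the shared bases are not in question, but Gins2, Cdt1 and Tk1 share their whole span. Cdt1 (5386 counts) shares its 5540 bases with Gm20388 on the same strand, where a strand setting would not separate them. Tk1 (398 counts) shares its 10567 bases with Gm20708 (32 counts) on the opposite strand. Rb1 (3406 counts) shares 24171 bases with Rcbtb2 (2804 counts), also on the opposite strand.

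The assignment of reads to genes was uncertain for a few members. The deposited posterior SD was largest, relative to the count, for Ccna2 (up to 29.7%), Ccnb1 (23.1%), Gins2 (14.5%) and Plk1 (10.1%), while that of Pcna was at most 0.479%. In the second deposited gene table, which holds whole-number counts on an older annotation, Ccnb1 had 6, 4 and 2 counts against 47.4, 31.4 and 12.6 estimated counts, and Pcna had 320, 329 and 307 against 2054, 1859 and 1921. The second table is smaller as a whole, with totals of 5110680, 4812984 and 4579836 counts, so raw counts of the 2 tables are not on 1 scale. For Mcm6 the same numbers were 1157, 1204 and 1072 against 1614, 1660 and 1461. Pcna was thus above Mcm6 in estimated counts and below it in the second table, in each library, and the reason was not tested. How the second table was counted is not given in the sources used here, and in it the replication genes were higher than the mitotic genes by 3.50 ± 0.259 on the log2(CPM + 0.1) scale without length correction.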

How the data were processed

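Members and gene lists were chosen with earlier results of these data known. Polyadenylated RNA was measured in 3 technical libraries of 1 mouse, with acoustic shearing and a size range of 100 to 300 bases per the labels. The authors deposited gene and transcript tables on mm10 with GENCODE M21 that hold each gene's expected count (an estimated count that shares ambiguous reads), TPM and FPKM, per the file headers. The deposited posterior SD of each count is a score used here only as assignment uncertainty. Another deposited table gives raw counts on GENCODE M4, and 22195 of its 22457 rows were matched by identifier. Aligner, quantifier, library kit and strand setting were not given in the sources used here.

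Rows that name no mouse gene (26345 of 81881, at most 0.579% of counts) were left out. The upper limit that a count of 0 allows, 3 counts, equals 0.185 CPM in library 1, 0.202 in library 2 and 0.212 in library 3; it covers counting error only, since reads without molecular identifiers are not independent molecules. Expected counts were rounded, and the homogeneity of each gene over the 3 libraries was tested by chi-square, with expected shares from TMM effective sizes (edgeR 4.0.16), at least 30 counts and Benjamini-Hochberg adjustment at 0.05 over 13949 genes. Dividing by the median inflation, DESeq2 1.42.0 size factors, total counts, other filters, units and pseudocounts, the second table and leaving out each library were the alternatives. The test was checked on simulated counts. With 1 group, no group comparison was made, and p-values measure only the spread between these libraries.

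All members are named, and of each other list the 3 highest and 2 lowest genes. Some genes that this rule covers are not reported here. Whole promoters are shown for the most abundant replication and mitotic gene with a match before its start, a condition added after the windows were seen, because the match of Cdt1 lies after it. Where a gene has several windows, a match in any counted. Python 3.11.15, scipy 1.17.1 and R 4.3.3 were used.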

Additional observations from a re-analysis of the deposited data

How the results depend on the processing

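The difference between replication and mitotic genes (3.42 on the mean log2(TPM + 0.1) scale) kept its direction under all 12 alternatives. It was 2.76 with a pseudocount of 1, 3.55 with a pseudocount of 0.01, 2.92 in posterior mean TPM, 3.55 in CPM without length correction, 3.24 without Pcna, and 3.38 to 3.46 with 1 library left out. Mitotic genes at 1 TPM or more numbered 7, and 11 in posterior mean TPM. The library test called 25 members and 7973 genes; divided by the median inflation it called 1 and 621, on the second deposited counts it called 10 of 38 and 2802 of 10267, and with 1 library left out 14 to 16 and 3546 to 5487, where fewer samples entered the test. The cause of the other shifts was not tested. Depth limits the 8 members below 1 TPM. No paired analysis was possible because the labels give 1 group.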
